A study of Mus musculus with 12 samples.

Results

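The enzymes of serine synthesis and of folate-bound one-carbon metabolism, with asparagine synthetase, were followed in mouse kidney 1 day after HP-AKI or sham. They were chosen by name in the deposited expression table, and all 10 of the 10 listed genes were found among its 43346 genes: Phgdh, Psat1, Psph, Shmt1, Shmt2, Mthfd1, Mthfd2, Mthfd1l, Aldh1l2 and Asns. Kidney RNA from 6 HP-AKI samples (numbers 7, 8, 9, 11, 12 and 13) was compared with kidney RNA from 6 sham samples (numbers 1 to 6). AKI stands for acute kidney injury. The full name HP-AKI is not written out in the labels; among kidney researchers it usually means injury caused by heme proteins such as myoglobin. For neither group do the labels state a strain, age, sex, genotype or dose. They also leave it unsaid whether each sample came from its own animal, and p-values here therefore reflect differences among libraries that may be technical in origin.

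Serine is made from a glycolytic intermediate in 3 steps, by a dehydrogenase (Phgdh), an aminotransferase (Psat1) and a phosphatase (Psph). Serine hydroxymethyltransferases then split serine to glycine and load the released carbon onto folate, with 1 enzyme in the cytosol (Shmt1) and another mainly in mitochondria (Shmt2). The cytosolic trifunctional enzyme Mthfd1 and the mitochondrial enzymes Mthfd2 and Mthfd1l interconvert the loaded folates, and the 2 compartments exchange the carbon as formate and serine. The loaded folates feed purine, thymidylate and methionine synthesis, and the transcription factor ATF4 is known to switch on several of these genes together with Asns when amino acids run short or mitochondria are stressed.

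The libraries held 31624522 to 40630917 gene counts in HP-AKI and 35201197 to 41951129 in sham. Counts were scaled to CPM (a gene's share of the library's counts, scaled to a common total) with TMM factors, and each gene was tested with edgeR's quasi-likelihood F-test over the 17470 genes that passed the filter on low counts, with a gene called at a Benjamini-Hochberg adjusted p under 0.05. The groups separated on the first principal component of log2 CPM (81.3% of the variance). The second (7.85%) set HP-AKI 8, sham 2 and sham 1 at 1 end, and in these 3 libraries the log2 CPM of a gene, taken as its deviation from its group mean, fell with the GC content of its transcript (Spearman correlations across 17326 genes of -0.62, -0.69 and -0.63, as a description, since genes are not independent). HP-AKI 9 leaned the same way (-0.43), and the other 8 libraries the opposite way (0.14 to 0.61). Values without these 3 libraries are therefore given for each of the 10 genes. All 10 genes passed the filter, none of them only through the group where it was high, with at least 532 counts over each group. In bulk tissue, fewer cells of a type and less RNA per cell cannot be told apart.

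Of the 10 genes, 6 rose, 3 fell and 1 was not called. The genes were chosen with earlier results of these data known, so their counts beside all genes are descriptions. The background was high, since 72.8% of all tested genes were called, 37.7% higher and 35.2% lower in HP-AKI. The median log2 fold change was 0.62 over the 10 genes and 0.04 over all genes tested. The mitochondrial enzymes Mthfd1l and Mthfd2 and the asparagine-making enzyme Asns rose most, by 10.4-fold, 4.71-fold and 7.06-fold. The cytosolic enzymes Mthfd1 and Shmt1 fell by 3.82-fold and 2.56-fold, and mitochondrial Shmt2 fell by 3.04-fold, so the mitochondrial enzymes moved in both directions. Within serine synthesis, Psat1 rose 2.72-fold, Phgdh rose 1.81-fold and Psph was not called. The groups did not overlap in 7 of the 10 genes, 4 with HP-AKI above and 3 with HP-AKI below, against 52.4% of all tested genes.

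**Figure D1:**
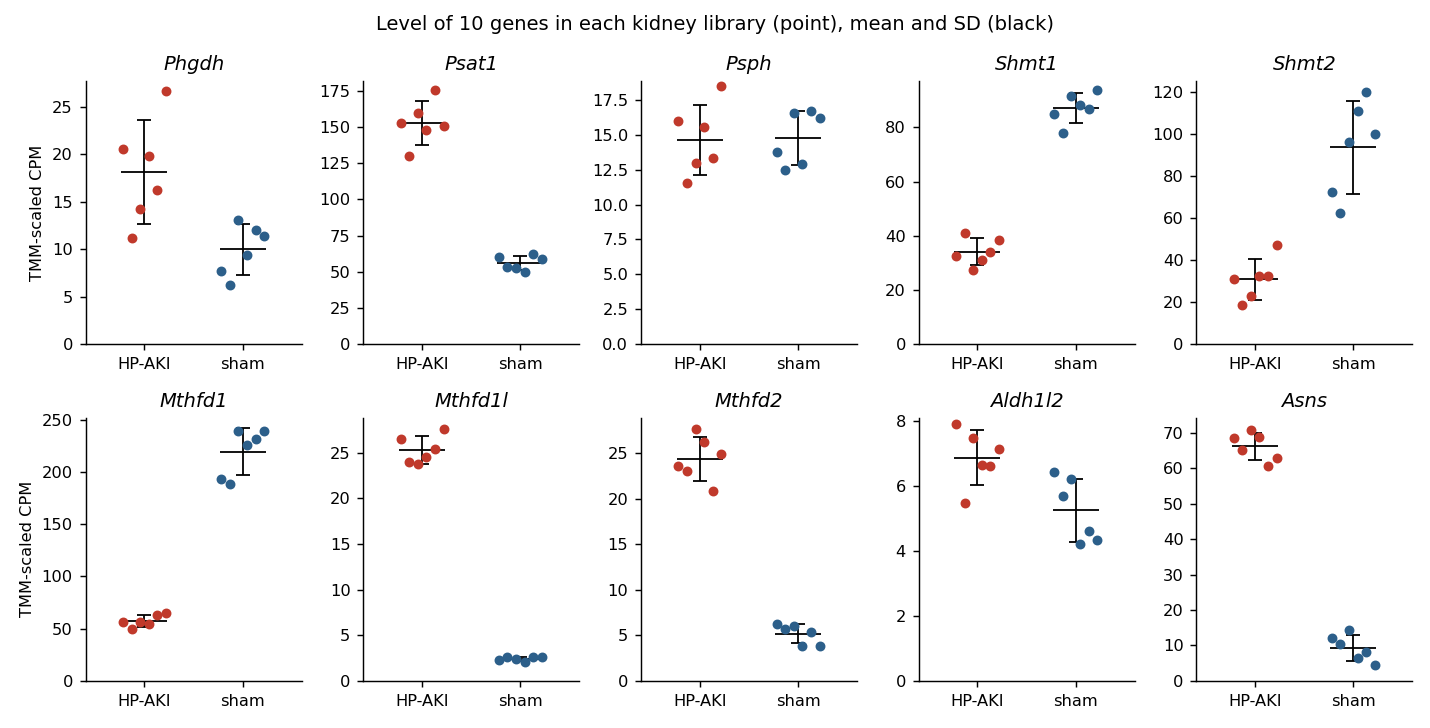
TMM-scaled CPM (vertical axes, each from 0) of the 10 genes in the 6 HP-AKI libraries (red, left) and the 6 sham libraries (blue, right), with the mean and SD in black. HP-AKI lies wholly above sham for Psat1, Mthfd1l, Mthfd2 and Asns and wholly below it for Shmt1, Shmt2 and Mthfd1, and the groups overlap for Phgdh, Psph and Aldh1l2.

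Phgdh, phosphoglycerate dehydrogenase, carries out the first step of serine synthesis (ENSMUSG00000053398, GRCm38 chromosome 3, 98313170 to 98339990, minus strand). Its level ran from 11.2 CPM over a median of 18.02 to 26.7 CPM in HP-AKI, against 6.25, 10.4 and 13.1 CPM in sham. The ranges overlapped, with HP-AKI 8 at 11.2 CPM below sham 3, 5 and 6 and the highest value in HP-AKI 13. The means were 18.1 ± 5.46 CPM in HP-AKI and 9.97 ± 2.65 CPM in sham (SD, n = 6 each), a log2 fold change of 0.86 ± 0.21 (SE) at an adjusted p of 0.00195 in the edgeR test. Without sham 1, sham 2 and HP-AKI 8 the log2 fold change was 0.72, and with an offset for GC content in each library it was 0.67, both still called. Phgdh transcripts were GC-rich, at 57.2% against a median of 49.5% over the tested genes. In a search of the GENCODE vM21 transcripts, 17 processed pseudogenes matched Phgdh at 90% identity or more over at least 100 bases, and the 8 of them in the table held 345 counts in HP-AKI and 200 in sham, against 3967 and 2214 for Phgdh itself. How reads that match several copies were counted is not given in the sources used here, so the Phgdh level is uncertain.

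Psat1, phosphoserine aminotransferase, carries out the second step (ENSMUSG00000024640, chromosome 19, 15904678 to 15947337, minus strand). Its lowest, median and highest levels were 129.7, 152 and 176 CPM in HP-AKI and 49.8, 55.9 and 62.2 CPM in sham. Each of the 6 HP-AKI values was more than the highest sham value, with HP-AKI 8 the lowest of them. HP-AKI over sham gave a log2 fold change of 1.45 ± 0.08 (SE) at an adjusted p of 7.12e-10 (edgeR), and 1.45 without the 3 libraries.

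Psph, phosphoserine phosphatase, completes the pathway by freeing serine (ENSMUSG00000029446, chromosome 5, 129765558 to 129787252, minus strand). It had 11.5, 14.4 and 18.5 CPM as its lowest, median and highest levels in HP-AKI and 12.5, 15.0 and 16.7 CPM in sham. The HP-AKI values spread on both sides of the sham range. The log2 fold change was -0.01 ± 0.12 (SE), with a 95% interval of -0.28 to 0.25 and an adjusted p of 0.928 (edgeR), so a 1.81-fold rise like the fitted one of Phgdh lies outside the interval. Without the 3 libraries it was -0.07, again not called. In GENCODE vM21, 10.4% of the exonic bases of Psph also belong to exons of Cct6a on the other strand, which had 56598 counts in HP-AKI and 43884 in sham. Strand is not recorded by the kit used, and reads in that stretch cannot be assigned to 1 of the 2 genes.

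Shmt1, the cytosolic serine hydroxymethyltransferase (ENSMUSG00000020534, chromosome 11, 60788104 to 60811718, minus strand), had 27.5, 33.2 and 41.2 CPM as its lowest, median and highest levels in HP-AKI and 77.9, 87.6 and 93.8 CPM in sham. No HP-AKI library came near the sham range, and HP-AKI 8 was the highest of its group. Its log2 fold change was -1.36 ± 0.09 (SE) at an adjusted p of 5.37e-09 (edgeR), and -1.51 without the 3 libraries. Exons of Smcr8 on the other strand cover 4.74% of its exonic bases.

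Shmt2, its mitochondrial counterpart (ENSMUSG00000025403, chromosome 10, 127517123 to 127522444, minus strand), had 18.8, 31.8 and 47.0 CPM as its lowest, median and highest levels in HP-AKI and 62.4, 98.1 and 120.1 CPM in sham. The groups did not overlap, although each spread widely, with HP-AKI 8 the lowest of its group and sham 2 and sham 1 the lowest of theirs. The log2 fold change was -1.60 ± 0.21 (SE) at an adjusted p of 4.41e-06 (edgeR). Shmt2 transcripts had a GC content of 57.4%, and the log2 fold change was -1.73 without the 3 libraries and -1.80 with GC offsets.

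Mthfd1, the cytosolic enzyme with synthetase, cyclohydrolase and dehydrogenase activities (ENSMUSG00000021048, chromosome 12, 76255232 to 76319820, plus strand), had 49.8, 56.4 and 65.3 CPM as its lowest, median and highest levels in HP-AKI and 189, 229 and 239 CPM in sham. The lowest sham value was well over the highest HP-AKI value. In the fit its log2 fold change was -1.93 ± 0.09 (SE) at an adjusted p of 6.59e-11 (edgeR), the largest fall among the 10 genes, and -2.03 without the 3 libraries.

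Mthfd1l, the mitochondrial enzyme that releases formate from 10-formyl-folate (ENSMUSG00000040675, chromosome 10, 3973118 to 4167081, plus strand), had 23.7, 24.9 and 27.6 CPM as its lowest, median and highest levels in HP-AKI and 2.104, 2.47 and 2.61 CPM in sham. Both groups were tight, with a coefficient of variation of 5.95% in HP-AKI and 8.42% in sham. The log2 fold change was 3.38 ± 0.09 (SE) at an adjusted p of 6.25e-13 (edgeR), the largest rise among the 10 genes, and 3.36 without the 3 libraries. No other GENCODE vM21 gene shares exonic bases with it.

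Mthfd2, the mitochondrial dehydrogenase and cyclohydrolase that is high in embryonic and tumour tissue and low in most adult tissue (ENSMUSG00000005667, chromosome 6, 83305691 to 83317606, minus strand), had 20.9, 24.2 and 27.7 CPM as its lowest, median and highest levels in HP-AKI and 3.83, 5.56 and 6.27 CPM in sham. The lowest HP-AKI library, number 12, was still far above the highest sham library. Its fitted log2 fold change was 2.23 ± 0.14 (SE) at an adjusted p of 1.35e-09 (edgeR), and 2.33 without the 3 libraries.

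Aldh1l2, the mitochondrial 10-formyl-folate dehydrogenase that oxidises the carbon to carbon dioxide (ENSMUSG00000020256, chromosome 10, 83487450 to 83534140, minus strand), had 5.48, 6.89 and 7.92 CPM as its lowest, median and highest levels in HP-AKI and 4.21, 5.16 and 6.42 CPM in sham. The groups overlapped, since HP-AKI 8 lay below sham 1, 2 and 3. Here the log2 fold change was 0.39 ± 0.14 (SE) at an adjusted p of 0.0185 (edgeR), and 0.52 without the 3 libraries. Exons of D10Wsu102e on the other strand cover 14.1% of its exonic bases and that gene had 12788 counts in HP-AKI and 10510 in sham, against 1518 and 1139 for Aldh1l2, so the small rise of Aldh1l2 is uncertain.

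Asns, asparagine synthetase, moves nitrogen from glutamine to aspartate and is a textbook target of ATF4 (ENSMUSG00000029752, chromosome 6, 7675169 to 7693254, minus strand). Its lowest, median and highest levels were 60.8, 66.9 and 70.9 CPM in HP-AKI and 4.49, 9.35 and 14.4 CPM in sham. The HP-AKI libraries lay close together, with a coefficient of variation of 5.87%, while sham spread with one of 39.3%, from sham 6 at the low end to sham 3 at the high end. Its rise was a log2 fold change of 2.82 ± 0.22 (SE) at an adjusted p of 1.70e-08 (edgeR), and 2.94 without the 3 libraries.

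**Figure D2:**
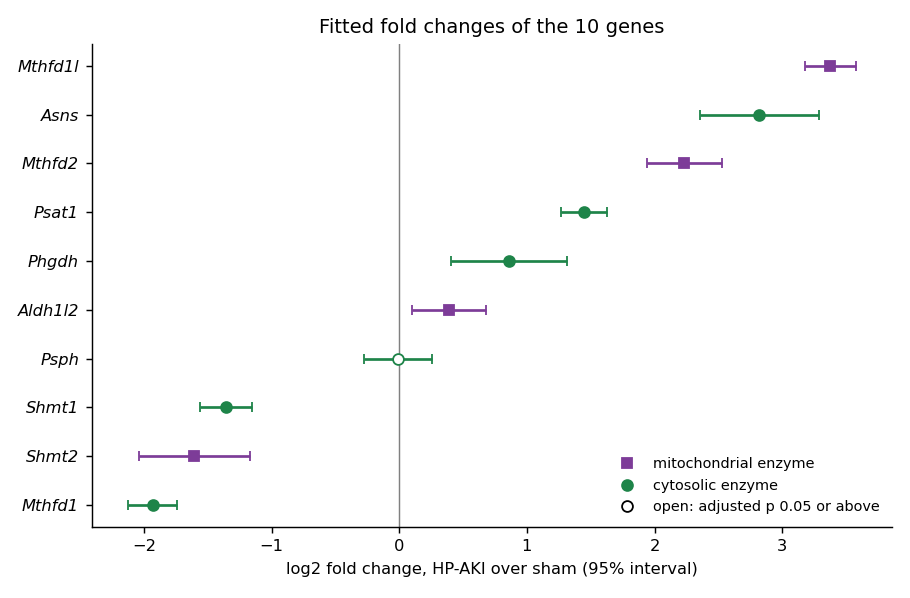
Fitted log2 fold change of HP-AKI over sham (horizontal axis) for the 10 genes, with 95% intervals. Purple squares are mitochondrial and green circles cytosolic enzymes, and the open circle is Psph, the gene that was not called. Mthfd1l stands highest at 3.38 and Mthfd1 lowest at -1.93.

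The promoters of the 10 genes were searched because several of them are known ATF4 targets. RefSeq start-site windows of GRCm38.p6 (250 bases before to 50 after the start) were held for 9 of the 10 genes, with 2 windows for Psat1 and none for Aldh1l2. Both strands were searched for TGATGNAA, the core of the C/EBP-ATF response element to which ATF4 binds, for CACGTG, the E-box bound by MYC, and for TGACNNNGC, the core of the antioxidant response element bound by NRF2. TGATGNAA was present in 1 of the 9 genes, Asns, and in 3.97% of 32851 mouse windows of the same length. TGACNNNGC was present in 3, Phgdh, Psph and Asns, and in 12.4% of these windows, while CACGTG was in none of the 9 and in 7.15% of them. No matches overlapped each other. The windows with a match follow, with that of Mthfd1l, the gene with the largest rise, which had none, and capitals mark the matches, 5′ to 3′ on the strand of the gene.
Asns, chr6:7693160-7693459, minus strand: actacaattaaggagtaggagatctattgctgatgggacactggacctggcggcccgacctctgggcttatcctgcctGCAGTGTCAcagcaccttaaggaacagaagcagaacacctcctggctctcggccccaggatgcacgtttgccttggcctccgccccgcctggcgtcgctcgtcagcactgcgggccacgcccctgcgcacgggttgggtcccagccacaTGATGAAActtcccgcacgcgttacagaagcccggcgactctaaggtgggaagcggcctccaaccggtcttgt
Phgdh, chr3:98339920-98340219, minus strand: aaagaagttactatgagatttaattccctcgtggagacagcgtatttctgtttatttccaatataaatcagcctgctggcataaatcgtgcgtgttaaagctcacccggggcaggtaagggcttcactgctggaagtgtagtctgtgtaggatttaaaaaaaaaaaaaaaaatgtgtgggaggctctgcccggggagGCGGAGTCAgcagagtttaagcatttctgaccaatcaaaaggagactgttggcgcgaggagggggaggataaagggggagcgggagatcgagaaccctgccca
Psph, chr5:129787204-129787503, minus strand: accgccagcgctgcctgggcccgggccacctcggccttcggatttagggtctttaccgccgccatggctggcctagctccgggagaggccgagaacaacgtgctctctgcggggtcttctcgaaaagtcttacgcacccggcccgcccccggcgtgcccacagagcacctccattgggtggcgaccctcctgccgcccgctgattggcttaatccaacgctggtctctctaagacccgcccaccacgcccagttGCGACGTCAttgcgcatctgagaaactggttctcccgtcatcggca
Mthfd1l, chr10:3972825-3973124, plus strand: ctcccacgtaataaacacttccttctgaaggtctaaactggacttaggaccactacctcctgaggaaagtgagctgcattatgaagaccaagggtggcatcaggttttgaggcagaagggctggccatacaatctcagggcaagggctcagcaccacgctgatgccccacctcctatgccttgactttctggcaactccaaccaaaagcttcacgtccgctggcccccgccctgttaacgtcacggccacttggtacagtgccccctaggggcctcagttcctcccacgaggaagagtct
In the Asns window the element TGATGAAA begins 23 bases before the start site, on the strand of the gene, and GCAGTGTCA, a match on the opposite strand, begins 172 bases before it. In the Phgdh window GCGGAGTCA begins 53 bases before the start, and in the Psph window GCGACGTCA begins at position 5 counted from it, both on the opposite strand. A match is a run of letters and not a shown binding site, and a window without one says only that these letters are not in it.

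The order of the 10 genes by level changed between the groups. On the scale of CPM per kilobase of the listed gene length, Psat1 stood first and Aldh1l2 last in HP-AKI, while Mthfd1 stood first and Mthfd1l last in sham. In HP-AKI the levels were 35.9 ± 3.53 for Psat1, 24.2 ± 1.42 for Asns, 17.3 ± 1.69 for Mthfd1, 13.4 ± 4.22 for Shmt2, 8.95 ± 0.893 for Mthfd2, 8.79 ± 1.28 for Shmt1, 7.28 ± 2.20 for Phgdh, 5.70 ± 0.339 for Mthfd1l, 3.65 ± 0.626 for Psph and 0.916 ± 0.113 CPM per kilobase for Aldh1l2 (SD, n = 6). In sham they were 66.0 ± 6.84 for Mthfd1, 40.6 ± 9.63 for Shmt2, 22.5 ± 1.44 for Shmt1, 13.2 ± 1.16 for Psat1, 4.01 ± 1.07 for Phgdh, 3.68 ± 0.485 for Psph, 3.43 ± 1.35 for Asns, 1.90 ± 0.396 for Mthfd2, 0.700 ± 0.131 for Aldh1l2 and 0.548 ± 0.0461 CPM per kilobase for Mthfd1l (SD, n = 6). Neighbours whose ranges overlapped in HP-AKI were Mthfd1 with Shmt2, Shmt2 with Mthfd2, Mthfd2 with Shmt1, Shmt1 with Phgdh and Phgdh with Mthfd1l. In sham they were Phgdh with Psph, Psph with Asns, Asns with Mthfd2, and Aldh1l2 with Mthfd1l.

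Ratios of 2 genes within a library do not depend on library scaling, and 7 were compared. Mthfd1l stood at 0.303 to 0.361 of the level of Mthfd1 per kilobase in HP-AKI and at 0.00698 to 0.0102 of it in sham, so that the mitochondrial form gained on the cytosolic form by 39.6-fold. Mthfd2 stood at 2.91 to 4.32 times the level of its relative Mthfd2l in HP-AKI and at 0.729 to 1.28 times in sham, a 3.42-fold gain. Aldh1l2 remained far below its cytosolic relative Aldh1l1, at 0.0162 to 0.0259 of its level in HP-AKI and 0.00597 to 0.0135 in sham, a 2.26-fold gain. Most of this gain came from the denominator, since Aldh1l1 fell by 0.78 on the log2 scale. The groups overlapped in Aldh1l1, at 169 to 264 CPM in HP-AKI and 255 to 424 CPM in sham. The rise of Aldh1l2 itself was 0.39 and, as given above, uncertain. Shmt2 and Shmt1 both fell, and their ratio, 0.768 to 2.06 in HP-AKI and 1.35 to 2.33 in sham, did not differ beyond the spread (log2 difference -0.26, exact two-sided permutation p = 0.327).

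Within serine synthesis and against Asns, Phgdh served as the denominator. Its level is uncertain, as given above, and its transcripts are GC-rich. Each ratio to Phgdh was highest among HP-AKI in HP-AKI 8 and highest among sham in sham 2, followed by sham 1. Psph stood at 0.43 to 0.641 of Phgdh per kilobase in HP-AKI and 0.786 to 1.24 in sham, a loss of 0.87 on the log2 scale. Asns stood at 2.15 to 5.31 times Phgdh in HP-AKI and 0.357 to 1.52 times in sham, a gain of 2.07 on the log2 scale. Psat1 over Phgdh, at 3.30 to 6.80 in HP-AKI and 2.36 to 4.96 in sham, overlapped between the groups and missed the threshold (log2 difference 0.59, exact permutation p = 0.0476, adjusted 0.0556). Without sham 1, sham 2 and HP-AKI 8 this difference was 0.76 and passed, at an adjusted exact p of 0.0185. Those libraries were picked after the data were seen. For the other 5 ratios the groups did not overlap. The exact two-sided permutation p was then bound to be 0.00216, the smallest that splits of 6 against 6 libraries can give, and was 0.00303 adjusted over the 7 ratios. The p therefore adds nothing to the absence of overlap. For Mthfd1l over Mthfd1 that absence was itself fixed, since HP-AKI lay wholly above sham in Mthfd1l and wholly below it in Mthfd1.

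**Figure D3:**
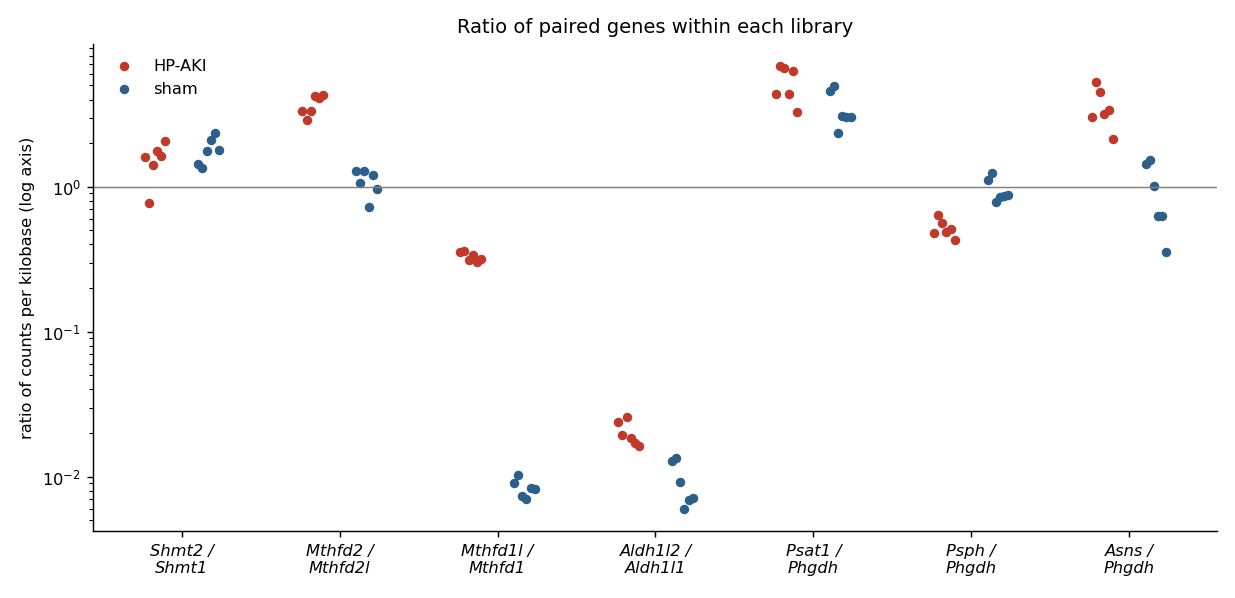
Ratio of counts per kilobase of paired genes (vertical log axis) in each HP-AKI library (red, left) and each sham library (blue, right). The widest gap is that of Mthfd1l over Mthfd1, at 0.303 to 0.361 in HP-AKI and 0.00698 to 0.0102 in sham, while Shmt2 over Shmt1 and Psat1 over Phgdh overlap between the groups.

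Within the groups the 10 genes did not vary as 1 block. After the group mean was taken from the log2 CPM, Phgdh went with Psph (Pearson r = 0.946) and Shmt2 (r = 0.901) over the 12 libraries, and Mthfd2 with Asns (r = 0.878) and Aldh1l2 (r = 0.759), while Shmt1 and Aldh1l2 ran against each other (r = -0.457). These are descriptions, and the libraries share the GC-related spread given above. HP-AKI 8, sham 1 and sham 2 were low in Phgdh and Shmt2, by 0.33 to 0.65 on the log2 scale, and HP-AKI 13 was high by 0.61 in Phgdh and 0.67 in Shmt2. Asns, Mthfd2 and Aldh1l2 were instead highest among sham in sham 1, 2 and 3. The genes most like Mthfd1l in this within-group spread, among 10922 genes of at least 5 CPM, were Dhx29 (r = 0.804), an RNA helicase, Socs3 (r = 0.804), a cytokine signalling inhibitor, and P4hb (r = 0.797), a protein disulfide isomerase. Those most like Mthfd1 were Mapk13 (r = 0.973), a p38-family kinase, Cyb561 (r = 0.965), a cytochrome, and Psen2 (r = 0.965), a gamma-secretase subunit. All of these are the top of a search over 10922 genes in 12 libraries. The height of r that such a search gives by itself was not tested, so no relation is read from them.

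**Figure D4:**
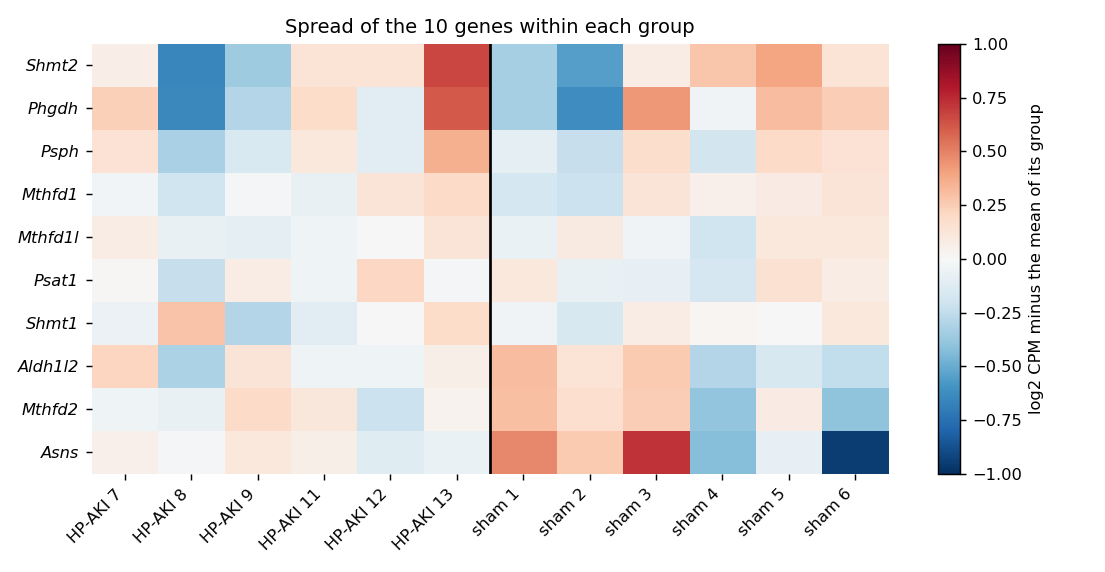
Deviation of log2 CPM from the mean of the gene's group (colour, red high and blue low) for the 10 genes (rows) in the HP-AKI libraries (left of the line) and the sham libraries (right). Shmt2 and Phgdh are low in HP-AKI 8, sham 1 and sham 2 and high in HP-AKI 13, and Asns spreads mainly among sham.

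The related lists that follow were chosen with earlier results of these data known, so their shares beside all genes are descriptions. The genes that handle folate and the other folate enzymes were mostly lower. Of 15 tested, 10 fell and 1 rose, against 35.2% lower and 37.7% higher over all genes, with a median log2 fold change of -0.56. Folr2, a folate receptor of macrophages, fell by 2.58 on the log2 scale, from a low level (0.783 CPM in HP-AKI and 4.69 CPM in sham). Ftcd, which takes the formimino group of histidine onto folate, fell to 3.91 ± 0.930 CPM in HP-AKI, against 19.0 ± 3.08 CPM in sham (SD, n = 6 each). Folr1, the folate receptor of the proximal tubule and the highest of the list in CPM averaged over both groups, fell to 177 ± 26.6 CPM in HP-AKI, against 533 ± 64.4 CPM in sham (log2 fold change -1.59 ± 0.11, SE). Mthfd2l, the mitochondrial relative of Mthfd2, was the gene that rose, by 0.49 ± 0.14 on the log2 scale at an adjusted p of 0.00451 (edgeR). Slc25a32, the mitochondrial folate carrier, was not called, at 0.27.

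Genes of glycine cleavage and of serine and glycine breakdown were mostly lower too. Of 16 tested, 15 fell and none rose, against 35.2% lower and 37.7% higher over all genes, with a median log2 fold change of -1.59, and 13 had HP-AKI wholly below sham, against 25.8% of all genes. Gatm, which uses glycine for creatine synthesis, fell to 75.8 ± 26.3 CPM in HP-AKI, against 1172 ± 90.4 CPM in sham (SD, n = 6 each). Glyctk, glycerate kinase, fell by 3.51 on the log2 scale, and Glyat, which joins glycine to acyl groups, by 1.17. The gene that was not called was Sdsl, at -0.41. In the glycine cleavage system itself, Amt, its folate-binding subunit, fell by 2.71 on the log2 scale and Gcsh by 1.27. Dld fell by 0.84 and the decarboxylase Gldc by 0.82 (adjusted p from 1.93e-12 for Amt to 0.0163 for Gldc, edgeR). The groups did not overlap for Amt, Gcsh and Dld. For Gldc they did, at 38.9 to 159 CPM in HP-AKI and 101 to 156 CPM in sham, so the highest HP-AKI value was above all of sham.

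Of 15 tested genes of the methionine cycle and transsulfuration, 11 fell and 2 rose, against 35.2% lower and 37.7% higher over all genes, with a median log2 fold change of -0.52. Bhmt2 and Bhmt, which make methionine without folate, fell by 2.89 and 2.46 on the log2 scale. Bhmt was low in both groups, at 0.587 CPM in HP-AKI and 3.25 CPM in sham, against 19.8 and 146 CPM for Bhmt2. Mat2a, which makes S-adenosylmethionine, fell to 483 ± 93.5 CPM in HP-AKI, against 844 ± 153 CPM in sham (SD, n = 6 each). The rises were those of Amd1 and Mri1, of polyamine synthesis and methionine salvage, by 0.36 and 0.35 on the log2 scale. Among 14 genes of purine and thymidylate synthesis, 6 rose and 6 fell, shares near the 37.7% higher and 35.2% lower over all genes. The inosine monophosphate dehydrogenases Impdh1 and Impdh2, which commit purines to guanine nucleotides, rose by 1.67 and 1.15 on the log2 scale, and Prps2, which makes the activated ribose, and Paics, of the purine ring, fell by 1.71 and 1.13. Thymidylate synthase, Tyms, fell by 1.10.

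Of 16 tested genes of serine, glycine and asparagine transport and amide metabolism, 7 rose and 6 fell, shares near the 37.7% higher and 35.2% lower over all genes, and 1 of the 7, Gls2, passed the filter on low counts only through HP-AKI. Slc38a2, the amino acid importer SNAT2, rose to 336 ± 59.8 CPM in HP-AKI, against 117 ± 23.1 CPM in sham (SD, n = 6 each). Slc6a14 rose by 1.23 on the log2 scale, at a low level (2.32 CPM in HP-AKI and 0.99 CPM in sham). Sfxn2, a mitochondrial sideroflexin, fell by 1.90, and Aspg, an asparaginase, by 2.03, while Glul, glutamine synthetase and the highest of the list in CPM, fell by 0.58. Sfxn1, the mitochondrial serine carrier, fell by 1.43 and its relative Sfxn3 rose by 0.92. Of 22 genes of the ATF4 pathway, 19 rose and none fell, against 37.7% higher and 35.2% lower over all genes, with a median log2 fold change of 1.88, and in 18 HP-AKI lay wholly above sham, against 26.7% of all genes. Atf4 itself rose to 289 ± 30.5 CPM in HP-AKI, against 55.9 ± 4.34 CPM in sham (SD, n = 6 each). Slc7a11, the cystine importer, Trib3, a pseudokinase, and Slc3a2, the heavy chain shared by amino acid exchangers, rose by 9.06, 5.34 and 1.39 on the log2 scale. Slc7a11 and Trib3 were near 0 in sham, with 50810 and 2997 counts over the HP-AKI libraries and 93 and 74 over the sham libraries, so their fitted folds are imprecise. They, Chac1 and Cebpb passed the filter on low counts only through HP-AKI, so that their call was built in. The 19 rises and the median of 1.88 include all 4, and the 18 without overlap include at least Slc7a11 and Trib3. The count without overlap was not repeated with all 4 left out, so it is a description only. Of the other 18 genes of the list 15 rose, with a median log2 fold change of 1.29, which is given as a description. The 3 that were not called were Cebpg (0.18), the heme-regulated kinase Eif2ak1 (-0.08) and the mitochondrial enzyme Pck2 (0.22).

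**Figure D5:**
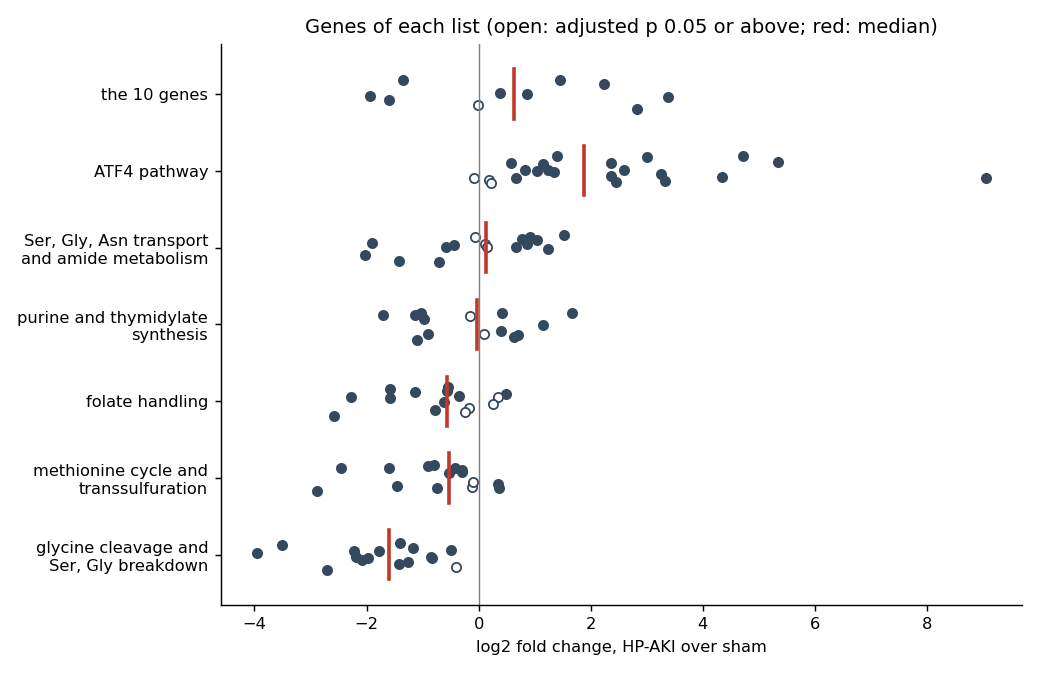
Log2 fold change of HP-AKI over sham (horizontal axis) of each tested gene (point) in the 10 genes and the 6 related lists, with open points for genes at an adjusted p of 0.05 or above and a red line at the median. The ATF4 list lies to the right with a median of 1.88 and the glycine and serine breakdown list to the left with a median of -1.59. Without the 4 genes that passed the filter on low counts only through HP-AKI, the ATF4 median is 1.29.

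Markers of kidney cells were present in both groups. The counts below stand beside 37.7% higher and 35.2% lower over all tested genes, and each list is short. All 7 proximal tubule markers fell, and their summed level was 1674 to 2724 CPM in HP-AKI and 9081 to 10629.6 CPM in sham. Of 5 markers of the loop of Henle, distal tubule and collecting duct, 2 fell and 1 rose: Slc12a1 had a log2 fold change of -2.86, Slc12a3 of -1.48 and Umod of 0.25. Their sum, 4421 to 6699 CPM in HP-AKI and 6587 to 7488 CPM in sham, was mostly Umod. Shmt1, Shmt2, Mthfd1 and the breakdown genes moved in the same direction as the falling tubule markers, and the part of the markers' fall in theirs was not tested. All 3 endothelial markers rose, with sums of 288 to 435 CPM in HP-AKI and 246 to 260.3 CPM in sham. Of 3 podocyte markers 2 rose and 1 fell, with sums of 480.4 to 649 CPM in HP-AKI and 382 to 514 CPM in sham. The 3 tested neutrophil markers rose (of 5 listed, with Ly6g and Mpo near 0 and not tested), S100a8 having passed the filter only through HP-AKI, and the list summed to 16.1 to 136 CPM in HP-AKI and 1.70 to 3.17 CPM in sham. The highest sum was that of HP-AKI 8, and the other 5 HP-AKI libraries lay at 16.1 to 49.0 CPM. Of 5 monocyte and macrophage markers, 2 rose and 3 fell, with sums of 95.9 to 143 CPM in HP-AKI and 86.0 to 121 CPM in sham, and 3 of the 4 tested lymphocyte markers (of 6 listed) fell, all 3 having passed the filter only through sham, with sums of 0.622 to 1.22 CPM in HP-AKI and 2.86 to 3.73 CPM in sham. None of the 5 markers of proliferating cells rose and 2 fell, a share near that of all genes, with sums of 14.9 to 29.1 CPM in HP-AKI and 14.5 to 52.1 CPM in sham. The highest sham sums were those of sham 2 (52.1 CPM) and sham 1 (46.5 CPM), and the remaining sham libraries lay at 14.5 to 33.7 CPM. The part of these cell types in the rises of Mthfd1l, Mthfd2, Psat1 and Asns was not tested.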

How the data were processed

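Kidney RNA of 12 samples (6 HP-AKI, 6 sham, day 1) was analysed from the raw gene counts the authors deposited. No result rests on the RPKM columns that the authors deposited beside them. Per the submitters' processing notes, which give no role or order, TopHat2 2.1.0, featureCounts and edgeR were named with GRCm38. Per the labels' protocols the library kit was TruSeq RNA v2, and whether counting used strand is not given in the sources used here.

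Gene counts were filtered with filterByExpr, scaled by TMM and fitted in R 4.3.3 with edgeR 4.0.16 (glmQLFit, glmQLFTest, group as the only term), with Benjamini-Hochberg adjustment over 17470 of 43346 genes and a threshold of 0.05. Ratios used counts plus 0.5 and an exact two-sided permutation test. Levels per kilobase used the listed lengths. Transcripts were compared with BLAST 2.17.0, and promoters were taken from RefSeq GRCm38.p6. The edgeR fit was run on simulated counts with far fewer changed genes than were called here and 1 common spread for all genes. That setting differs from these data, so the run does not show how well the fit performs on them.

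The members and lists were chosen with earlier results of these data known. From each related list, the 2 largest called rises, the 2 largest called falls and the gene with the highest mean CPM were named. Slc25a32, Sdsl, Amt, Gcsh, Dld, Gldc, Tyms, Gls2, Sfxn1, Sfxn3, Atf4, Cebpg, Cebpb, Chac1, Eif2ak1 and Pck2 were named outside that rule, after their values were seen. For Mthfd1l and Mthfd1 the 3 genes of at least 5 CPM with the highest Pearson r of within-group deviations were named. Alternatives were RLE, upper-quartile and library-size scaling, other filters, DESeq2 1.42.0, limma-voom (limma 3.58.1), leaving out libraries, and GC offsets, the last chosen after seeing the data.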

Additional observations from a re-analysis of the deposited data

Results flagged for a closer look

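In 5 of 82 groups of 6 libraries tested, 1 library lay far from the others by Dixon's test at the 95% level, and chance alone gives about 1 in 20. All 5 were related genes in HP-AKI, and none was among the 10 enzymes. Slc38a2 had 457 CPM in HP-AKI 8, with the other HP-AKI libraries at 297 to 324 CPM. Slc6a14 had 4.34 CPM in HP-AKI 8, with the others at 1.72 to 2.24 CPM. Glyctk had 19.6 CPM in HP-AKI 13, with the others at 12.2 to 14.3 CPM. Trib3 had 19.9 CPM in HP-AKI 13, with the others at 10.3 to 13.9 CPM. Slc7a11 had 143 CPM in HP-AKI 12, the low end, with the others at 227 to 265 CPM. The calls of these 5 genes kept their sign and side of the threshold without each of these libraries.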

How the results depend on the processing

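Of the 10 enzymes, 9 kept their call and sign under each of the 21 alternatives, as did the 24 related genes named by rule. Psph, not called in any of them, was 0.10 with library size alone, 0.0059 with GC offsets and -0.11 to 0.0192 when 1 library was left out. Scaling by library size alone put the median over the tested genes at 0.16 (log2), against 0.04 with TMM. The largest adjusted p of Aldh1l2 was 0.0491. The single rise among the other folate genes became 3 with library size alone, 3 with GC offsets, 2 without sham 1, sham 2 and HP-AKI 8, and 1 to 2 when 1 library was left out, with 2 without HP-AKI 8 and 2 without sham 2. The log2 difference of Psat1 over Phgdh, 0.59, passed the threshold at 0.76 without the 3 libraries and ranged from 0.49 to 0.72 when 1 library was left out, passing without HP-AKI 13 (0.72), sham 1 (0.68) or sham 2 (0.70). The cause was not tested. No paired analysis was possible because the sample numbers of HP-AKI and sham do not overlap.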
